A study of Rattus norvegicus with 9 samples.

Results

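Endothelin, angiotensin II and vasopressin are the main peptide vasoconstrictors of resistance and conduit arteries, and 10 of their genes were followed in the superior mesenteric artery of rats after blood loss. The genes were taken by symbol from a table of 37203 genes: the endothelin ligands Edn1 and Edn3, the endothelin-converting enzyme Ece1, the endothelin receptors Ednra and Ednrb, angiotensinogen (Agt), angiotensin-converting enzyme (Ace), the AT1 angiotensin receptors Agtr1a and Agtr1b, and the V1a vasopressin receptor Avpr1a. All 10 had enough reads to be among the 15482 genes tested, Edn3 only through 3 ischemic libraries. RNA sequencing counts came from 9 artery libraries of Sprague-Dawley rats aged 8 weeks: 3 Normal, 3 with ischemia for 1 h (the early stage) and 3 with ischemia for 4 h (the late stage). Ischemia was made by bleeding anaesthetised rats through a catheter in the right femoral artery, so the insult was to the whole animal and not a ligation of the mesenteric artery. No genetic change is named for these rats, nor a drug other than pentobarbital. Whether Normal rats were anaesthetised or catheterised is not given in the sources used here. The labels do not tie libraries to animals, and the study's methods speak of 3 individuals without saying whether that is per condition, so p-values measure only the spread between libraries, which may be technical.

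In the artery wall, endothelial cells make most endothelin-1. It is cut from its precursor by Ece1 and contracts smooth muscle through the A receptor (Ednra), while the B receptor (Ednrb) on endothelium releases nitric oxide and clears the peptide. Angiotensinogen is cut in steps, the last by Ace, to angiotensin II, which acts on AT1 receptors, and rodents carry a pair of AT1 genes, Agtr1a and Agtr1b. Vasopressin is made in the hypothalamus and reaches the artery through the blood, so of that system only its receptors are expected to be transcribed in the vessel. The receptors Ednra, AT1 and V1a all couple to Gq/11 proteins, phospholipase C and calcium release in smooth muscle.

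The promoters of 8 of the 10 genes were found in the RefSeq table of rat assembly GRCr8, which gives 250 bases before to 50 bases after each annotated start. Edn1 and Avpr1a are shown because they were the only genes of the 10 with all libraries of both ischemic groups above all Normal libraries. In either direction, groups did not overlap for 26.3% of all genes at 1 h and 18.7% at 4 h. The share for both stages together was not computed. Agtr1a and Agtr1b are shown because these close paralogs were highest in different libraries. Letters searched for on both strands are in capitals: TATAAA (the TATA box), TGACTAA and TGACTCA (letters bound by AP-1), GATAA (GATA factors), ACGTG (the core of hypoxia response elements) and, by name, the CArG box of serum response factor. They were chosen after the sequences had been seen.
Edn1, chr17:22666638-22666937, minus strand: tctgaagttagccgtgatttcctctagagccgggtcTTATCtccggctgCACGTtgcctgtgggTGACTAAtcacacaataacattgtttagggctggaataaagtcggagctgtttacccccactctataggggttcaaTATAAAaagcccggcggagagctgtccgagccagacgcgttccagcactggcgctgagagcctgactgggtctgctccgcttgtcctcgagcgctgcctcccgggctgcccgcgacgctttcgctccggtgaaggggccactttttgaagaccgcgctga
Avpr1a, chr7:59999493-59999792, plus strand: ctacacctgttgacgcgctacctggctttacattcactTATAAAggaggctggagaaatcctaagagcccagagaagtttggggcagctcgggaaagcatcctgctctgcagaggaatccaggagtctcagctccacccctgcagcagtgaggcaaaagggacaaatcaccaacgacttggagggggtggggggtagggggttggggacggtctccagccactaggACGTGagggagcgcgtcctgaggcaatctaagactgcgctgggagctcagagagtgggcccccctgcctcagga
Agtr1a, chr17:34435383-34435682, minus strand: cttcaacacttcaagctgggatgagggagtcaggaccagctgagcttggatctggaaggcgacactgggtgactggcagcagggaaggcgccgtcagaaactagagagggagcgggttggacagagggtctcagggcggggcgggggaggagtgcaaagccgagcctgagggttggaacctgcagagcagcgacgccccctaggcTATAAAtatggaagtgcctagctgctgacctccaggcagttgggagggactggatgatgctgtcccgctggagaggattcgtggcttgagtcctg
Agtr1b, chr2:104849213-104849512, minus strand: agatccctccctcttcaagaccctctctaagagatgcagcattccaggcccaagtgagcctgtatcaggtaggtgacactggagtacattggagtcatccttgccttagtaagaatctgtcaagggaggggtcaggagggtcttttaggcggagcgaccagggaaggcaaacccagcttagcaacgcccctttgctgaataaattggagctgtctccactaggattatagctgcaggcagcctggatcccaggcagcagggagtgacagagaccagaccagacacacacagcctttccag

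The Edn1 window held TATAAA from base 141, TGACTAA from base 65, and, on the other strand, GATAA from base 37 and ACGTG from base 50, with bases counted from the 5′ end. Avpr1a held TATAAA from base 39 and ACGTG from base 227. Agtr1a held TATAAA from base 206, whereas none of the searched letters stood in the Agtr1b window. Of 33469 rat promoters of this length, 14.2% held TATAAA, 2.34% TGACTAA, 26.5% GATAA, 19.3% ACGTG, 4.63% TGACTCA and 1.64% a CArG box. TGACTCA and the CArG box were in 0 of the 8 windows, and TATAAA was in 4 of them (Ace, Agtr1a, Avpr1a and Edn1). These are matches of letters, not binding sites.

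Counts were expressed as CPM, counts scaled to library size with TMM factors, and group differences were tested with edgeR over all 15482 genes; calling needed an adjusted p below 0.05 and a fold change over 1.5. Library totals were 13114273 to 15504240 counts, so 3 counts corresponded to 0.168 to 0.249 CPM. The labelled artery tissue was checked with 24 smooth muscle and endothelial genes, Myh11, Acta2, Pecam1 and Cdh5 among them, and 0 of them were absent from any library. The libraries differed in what else they held. The summed CPM of 16 sympathetic neuron genes was 36.9 to 621 in Normal, 904 to 8160 at 1 h and 49.7 to 7962 at 4 h, and it was 8106, 8160 and 7962 in replicates 1 and 3 at 1 h and replicate 3 at 4 h, termed the neuron-rich libraries. Summed CPM of 12 smooth muscle genes was 12718, 54600 and 57403 in Normal replicates 1 to 3, 29313, 53171 and 14669 at 1 h, and 79202, 57697 and 27699 at 4 h. In bulk tissue, fewer cells of a type and less RNA per cell cannot be told apart. Levels are compared between libraries only, since the table holds no gene lengths.

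None of the 10 genes was called by edgeR in any comparison. At 1 h 0 of 10 passed, against 9 of 15482 genes (0.0581%). At 4 h 0 of 10 passed, against 14 genes (0.0904%), and between 4 h and 1 h no gene of the table passed (0%). In the joint test of the 3 groups 0 of 10 passed, against 0.0388% of genes. At an unadjusted p under 0.05, 4 of the 10 stood out at 1 h (Edn1, Ednrb and Avpr1a higher, Ednra lower), against 16.7% of all genes. At 4 h only Edn1 did, against 12.4%, and between 4 h and 1 h only Avpr1a did, against 2.58%. In the joint test these were Edn1 and Avpr1a, against 11.4%. DESeq2, the other tool run, called Edn1 and Avpr1a at 1 h, where it called 4.28% of its genes, and Edn1 at 4 h, where it called 3.52%. The median log2 fold change of the 10 genes was 0.96 at 1 h and 0.43 at 4 h, against -0.0076 and 0.027 over all genes. The 10 genes were chosen with earlier results of these data known, so these shares and medians cannot show a shift of the set.

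**Figure D1:**
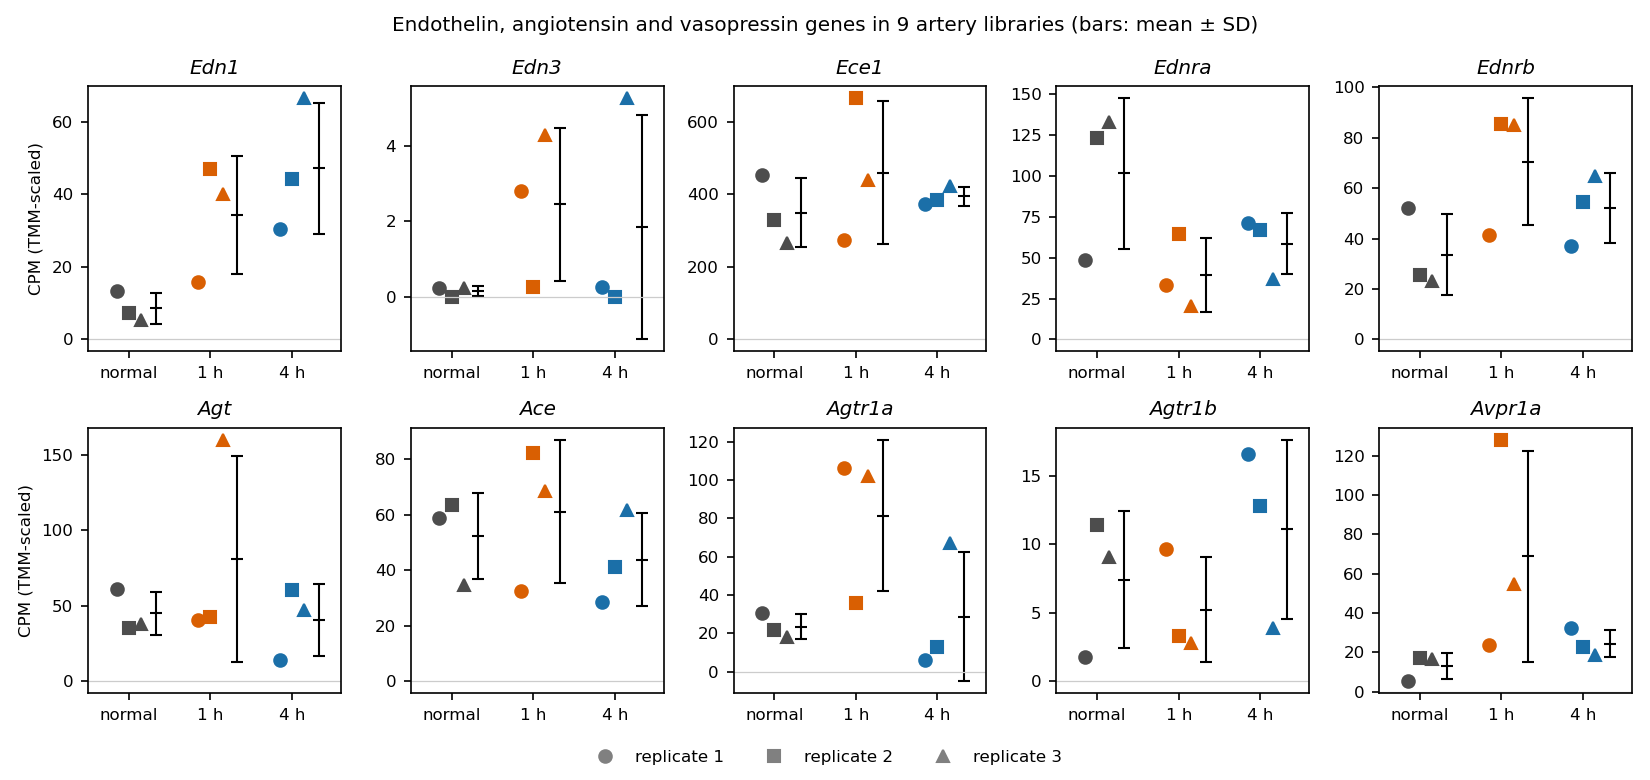
TMM-scaled CPM of the 10 genes (y axis, 1 panel a gene) in the 9 libraries, by group (x axis); marker shapes give the replicate number and bars the mean ± SD of 3 libraries. Edn1 and Avpr1a lie above all Normal libraries in all 6 ischemic libraries, while the other genes overlap between groups in at least 1 ischemic stage. Over all genes, groups did not overlap for 26.3% at 1 h and 18.7% at 4 h.

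Among the endothelin ligands, Edn1 was higher in all 6 ischemic libraries than in any Normal library. It stood at 13.3, 7.15 and 5.24 CPM in Normal replicates 1 to 3, at 15.8, 46.9 and 40.0 CPM at 1 h, and at 30.5, 44.4 and 66.6 CPM at 4 h. The smallest gap was between Normal replicate 1 and replicate 1 at 1 h. The groups averaged 8.56 ± 4.19, 34.2 ± 16.3 and 47.1 ± 18.2 CPM (SD, n = 3), in the order Normal, 1 h, 4 h. Its log2 fold change was 1.996 ± 0.514 (SE) at 1 h, with an edgeR adjusted p of 0.21, and 2.46 ± 0.52 at 4 h, with an adjusted p of 0.118. The step from 1 h to 4 h was within the spread (log2 0.46 ± 0.49, edgeR adjusted p = 0.856). At 1 h the groups did not overlap for 26.3% of all genes and at 4 h for 18.7%, so separation alone was common. Under 19 other settings the edgeR or DESeq2 adjusted p of Edn1 ran from 0.00862 to 0.591 at 1 h and from 0.000349 to 0.317 at 4 h, with a log2 fold change of 1.64 to 2.48 and of 2.13 to 2.92.

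Edn3, a ligand that binds the B receptor well and the A receptor weakly, was near the detection limit. Its raw counts were 4, 0 and 3 in Normal, 42, 4 and 70 at 1 h, and 3, 0 and 80 at 4 h. Only the 3 libraries rich in sympathetic neuron genes had more than 4 counts. Edn3 passed the count filter only through these ischemic libraries, so its fold changes and p-values cannot serve as support for a difference. The log2 fold change was 3.95 ± 1.82 at 1 h (edgeR adjusted p = 0.31) and 3.55 ± 1.81 at 4 h (adjusted p = 0.468). Without replicate 3 at 4 h the late value was -0.27, and with a score of nerve genes in the model the early value was 1.35 with an edgeR adjusted p of 0.739. Edn2, the remaining ligand, had 0 counts in all 9 libraries.

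Ece1, which releases the active peptide from its precursor, was measured at 453, 328 and 267 CPM in Normal, 272, 665 and 439 CPM at 1 h, and 374, 385 and 424 CPM at 4 h. The groups overlapped. Its log2 fold change was 0.40 ± 0.34 at 1 h (edgeR adjusted p = 0.541) and 0.18 ± 0.34 at 4 h (adjusted p = 0.862), and the latter was -0.020 when libraries were scaled by total count alone, a scaling under which the median of all genes was -0.15. Set against 12 endothelial genes, a ratio chosen after the values were seen, Ece1 per 1000 endothelial CPM was 216 to 237 in Normal, 277 to 432 at 1 h and 299 to 412 at 4 h, with no overlap with Normal. For Edn1 the same ratio was 4.66 to 6.33 in Normal, 16.1 to 34.7 at 1 h and 33.7 to 54.8 at 4 h. In both genes and at both times the exact permutation p was 0.1 (two-sided), the smallest that 3 against 3 libraries can give. Ace, set against the same genes, overlapped with Normal at both times: it was 28.0 to 42.7 in Normal, 33.1 to 59.5 at 1 h and 31.4 to 50.8 at 4 h (exact permutation p = 0.2 and 0.5). The divisor itself was lower on average after ischemia, with a median sum of 1488 CPM in Normal, 1152 at 1 h and 1214 at 4 h. Of the 12 endothelial genes, 10 were lower at 1 h and 11 at 4 h, none of them called. These ratios therefore stand higher against Normal than the CPM of the genes do. The shares of all genes without overlap, 26.3% and 18.7%, hold for CPM. Such a share was not computed for this ratio or for the later ratios.

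The endothelin receptors differed from Normal in opposite directions on average. Ednra, the contractile receptor of smooth muscle, was lower on average after ischemia: 48.7, 123 and 133 CPM in Normal, 33.2, 64.3 and 20.6 CPM at 1 h, and 71.3, 67.2 and 37.0 CPM at 4 h. Normal replicate 1 lay among the ischemic libraries, and it was also the library with the least smooth muscle RNA. Its group means were 102 ± 46.1, 39.4 ± 22.5 and 58.5 ± 18.7 CPM, giving log2 fold changes of -1.37 ± 0.51 at 1 h (edgeR adjusted p = 0.277) and -0.80 ± 0.51 at 4 h (adjusted p = 0.552). Of the 3 groups, Normal was highest, then 4 h, then 1 h, and the 4 h and 1 h levels were within their spread (log2 0.57 ± 0.51).

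Because Ednra is a gene of smooth muscle, it was also set against the 12 smooth muscle genes, which do not include it. Per 1000 CPM of those genes it was 3.83, 2.25 and 2.32 in Normal, 1.13, 1.21 and 1.41 at 1 h, and 0.90, 1.17 and 1.33 at 4 h. All 6 ischemic libraries lay below all 3 Normal libraries. The share of all genes that separate on this ratio was not computed. The mean log2 ratio differed from Normal by -1.12 at 1 h and by -1.28 at 4 h, each with an exact permutation p of 0.1, the smallest possible. The divisor itself differed: all 12 smooth muscle genes were lower on average at 1 h (median log2 -0.38) and higher at 4 h (0.40), none of them called. Against Normal, the ratio therefore stands higher at 1 h and lower at 4 h than the CPM of Ednra does. With Myh11 alone in place of the list the differences were -1.01 and -1.17, and with Acta2 alone -1.25 and -1.31. In the edgeR fit with a smooth muscle score as a covariate, Ednra was the 1 gene of the 10 to be called: it fell by 1.21 ± 0.15 on the log2 scale at 1 h (adjusted p = 0.0398, edgeR) and by 1.11 ± 0.16 at 4 h (adjusted p = 0.0384, edgeR). That fit called 0.22% of genes at 1 h and 0.452% at 4 h. The ratio was chosen after the values had been seen. With the nerve score as covariate instead, the Ednra values were -0.68 at 1 h (edgeR adjusted p = 0.635) and -0.73 at 4 h (adjusted p = 0.384). Fat cell genes ran opposite to Ednra: the mean log2 CPM of 10 adipocyte genes was 5.16, 3.63 and 3.44 in Normal, 6.32, 4.29 and 6.23 at 1 h, and 3.86, 4.39 and 5.56 at 4 h. Normal replicates 2 and 3, highest in Ednra, were lowest in these genes, and replicates 1 and 3 at 1 h, lowest in Ednra, were highest in them. Their summed CPM was 404 to 2408 in Normal, 1006 to 2243 at 1 h and 464 to 1180 at 4 h, with Ucp1 at 0 in all Normal libraries and in replicates 1 and 2 at 4 h, and their part in the Ednra values was not tested. The sums of 5 adrenal genes were low, 1.26 to 3.75 CPM in Normal, 4.01 to 14.4 at 1 h and 3.31 to 7.33 at 4 h.

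**Figure D2:**
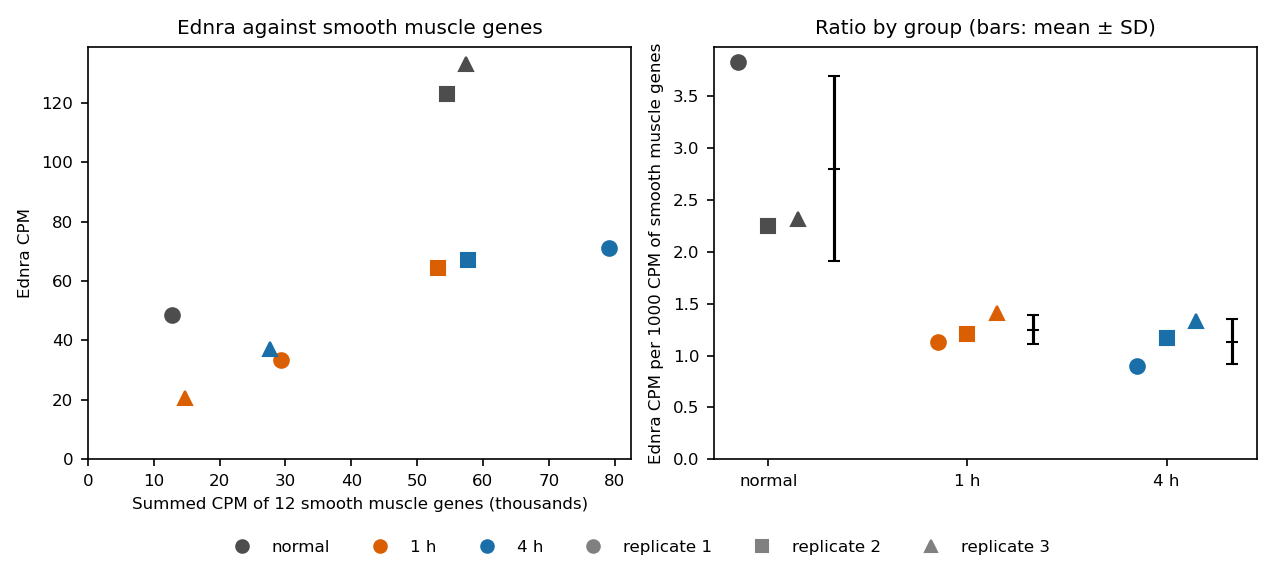
Left, Ednra CPM (y axis) against the summed CPM of 12 smooth muscle genes (x axis, in units of 1000) in 9 libraries; right, Ednra CPM per 1000 CPM of those genes by group, with mean ± SD of 3 libraries. The 3 Normal libraries lie between 2.25 and 3.83 and the 6 ischemic ones between 0.90 and 1.41.

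Ednrb was higher on average after ischemia. Its values were 52.3, 25.4 and 23.3 CPM in Normal, 41.3, 85.3 and 84.9 CPM at 1 h, and 37.0, 54.5 and 64.9 CPM at 4 h. Normal replicate 1 was above replicate 1 of both ischemic groups, so the groups overlapped. The log2 fold change was 1.07 ± 0.41 at 1 h (edgeR adjusted p = 0.281) and 0.63 ± 0.41 at 4 h (adjusted p = 0.556), with 1 h highest, then 4 h, then Normal. Per 1000 CPM of endothelial genes the overlap was gone: 24.9, 17.1 and 20.7 in Normal, 42.0, 55.4 and 73.7 at 1 h, and 40.9, 42.4 and 53.5 at 4 h (exact permutation p = 0.1 at each time). The divisor was itself lower on average after ischemia, and the share of all genes that separate on this ratio was not computed. Ednrb is also made by glia, and the summed CPM of 11 Schwann cell genes varied widely: 4739, 253 and 895 in Normal, 1302, 2615 and 2195 at 1 h, and 513, 2393 and 2083 at 4 h. In each group the library with the most Schwann cell RNA had more Ednrb than the library with the least. The part of Schwann cell RNA in the Ednrb values was not tested by itself; with the nerve score, which includes it, the log2 values were 0.74 at 1 h (edgeR adjusted p = 0.581) and 0.61 at 4 h (adjusted p = 0.44).

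The ratio of B to A receptor counts within a library does not depend on scaling, but it does depend on cell makeup. Ednra is a gene of smooth muscle, whereas Ednrb is made by endothelium and glia. In each group the library with the least smooth muscle RNA had the highest ratio, and the part of cell makeup was not tested. The log2 ratio of Ednrb to Ednra was 0.10, -2.27 and -2.51 in Normal, 0.31, 0.41 and 2.04 at 1 h, and -0.94, -0.30 and 0.81 at 4 h. All libraries at 1 h were above all Normal libraries, by 2.48 on average (exact permutation p = 0.1). At 4 h the mean was 1.42 higher, with Normal replicate 1 inside the range of the late stage (exact permutation p = 0.3).

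The angiotensin genes did not separate the groups as Edn1 did. Agt, the precursor, was at 61.4, 35.2 and 38.2 CPM in Normal, 40.3, 42.4 and 160 CPM at 1 h, and 14.1, 60.1 and 47.1 CPM at 4 h. Replicate 3 at 1 h carried the early difference. Fitted log2 fold changes were 0.85 ± 0.66 at 1 h (edgeR adjusted p = 0.492), or -0.13 without that library, and -0.15 ± 0.66 at 4 h (adjusted p = 0.946). Ace, which makes angiotensin II and degrades bradykinin, was at 58.7, 63.6 and 34.8 CPM in Normal, 32.5, 82.4 and 68.6 CPM at 1 h, and 28.4, 41.1 and 61.7 CPM at 4 h. These ranges overlapped throughout, with log2 fold changes of 0.22 ± 0.41 (edgeR adjusted p = 0.788) and -0.26 ± 0.41 (adjusted p = 0.822).

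Agtr1a was higher at 1 h in all 3 libraries than in any Normal library: 30.7, 21.7 and 18.1 CPM in Normal, 106, 36.0 and 102 CPM at 1 h, and 5.87, 12.7 and 67.3 CPM at 4 h. The libraries at 106, 102 and 67.3 CPM were those rich in sympathetic neuron genes, where Dbh, which makes noradrenaline, stood at 1854, 1866 and 2041 CPM against 0 to 226 CPM elsewhere. For Agtr1a the log2 fold change was 1.79 ± 0.83 at 1 h (edgeR adjusted p = 0.311) and 0.28 ± 0.81 at 4 h (adjusted p = 0.91). Without those 3 libraries the values were 0.63 and -1.31, with the 1 h group down to 1 library that is assumed to vary like the others; with the nerve score in the model they were 0.38 and -0.58. Per 1000 CPM of sympathetic neuron genes, Agtr1a was 49.5, 589 and 49.6 in Normal, 13.1, 39.8 and 12.5 at 1 h, and 118, 238 and 8.46 at 4 h. On that scale all 3 libraries at 1 h were below Normal (log2 difference -2.60, exact permutation p = 0.1, the smallest possible). The late stage overlapped with Normal (-0.87, exact permutation p = 0.6). The divisor itself was 36.9 to 621 CPM in Normal and 904 to 8160 CPM at 1 h. A gene that did not follow it would also be lower on this scale at 1 h. The direction, opposite to that in CPM, therefore does not tell how Agtr1a differed. The value of 589 rests on a sum of 36.9 CPM, with 4 of the 16 genes at 0.

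Agtr1b, the other AT1 gene, had few reads: 1.79, 11.4 and 9.09 CPM in Normal, 9.63, 3.28 and 2.76 CPM at 1 h, and 16.6, 12.8 and 3.90 CPM at 4 h. It was high where Agtr1a was low at 4 h, and lowest in Normal replicate 1, the library with the least smooth muscle RNA. Against smooth muscle genes the groups did not separate (exact permutation p = 0.9 at 1 h and 0.6 at 4 h). Its log2 fold change was -0.50 ± 0.80 at 1 h (edgeR adjusted p = 0.75) and 0.58 ± 0.79 at 4 h (adjusted p = 0.786). Reads that fit both AT1 genes may have been split or dropped, as the counting rule is not given in the sources used here, and levels of either gene are uncertain to that extent.

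**Figure D3:**
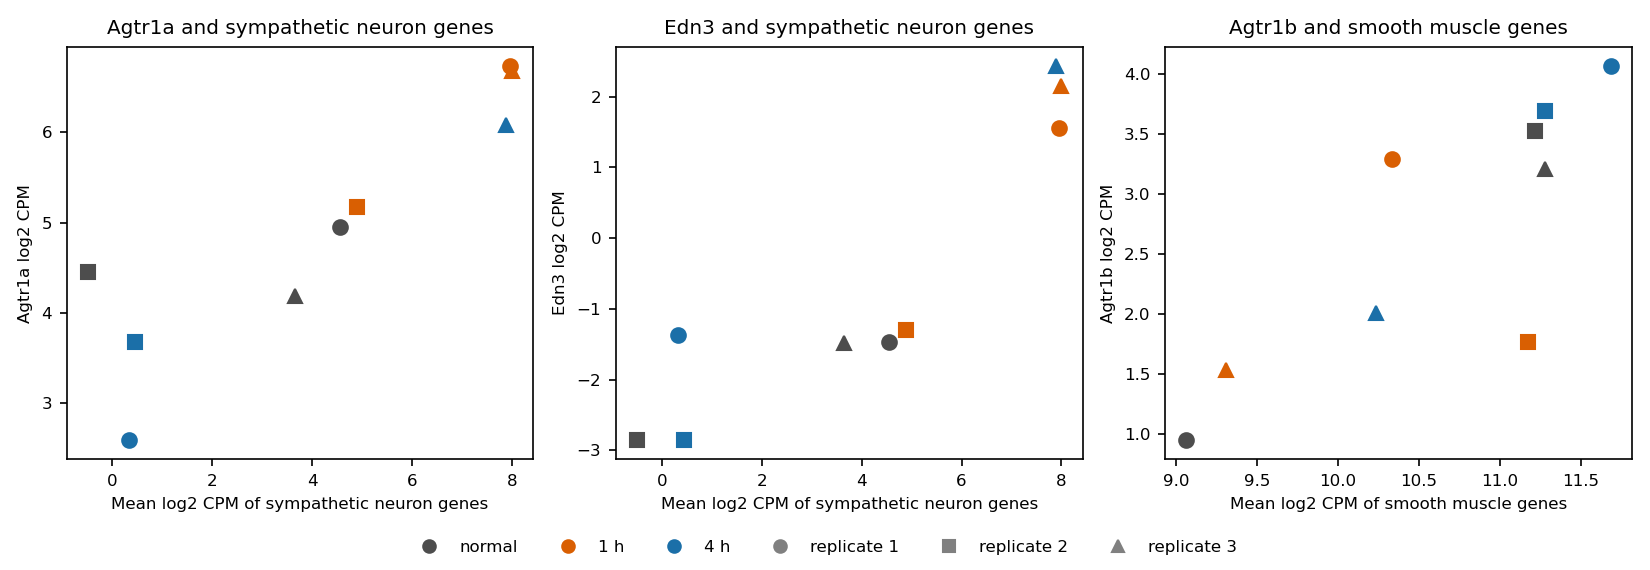
Log2 CPM of Agtr1a and Edn3 against the mean log2 CPM of 16 sympathetic neuron genes, and of Agtr1b against that of 12 smooth muscle genes, in 9 libraries coloured by group. The 3 libraries at the right of the first 2 panels hold the highest Agtr1a and Edn3 values, and Agtr1b is lowest in the library with the least smooth muscle RNA.

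Avpr1a, through which vasopressin contracts arteries, was the gene with the largest early difference among those above 5 CPM in every library. It stood at 5.32, 17.1 and 16.7 CPM in Normal, 23.8, 128 and 54.8 CPM at 1 h, and 32.4, 22.6 and 18.7 CPM at 4 h. Every ischemic library was above every Normal library, though at 4 h by a narrow margin, and replicate 2 at 1 h was far above the rest. Means were 13.03 ± 6.68 CPM in Normal, 68.9 ± 53.5 at 1 h and 24.5 ± 7.08 at 4 h (SD, n = 3). The log2 fold change was 2.40 ± 0.66 at 1 h (edgeR adjusted p = 0.218) and 0.92 ± 0.63 at 4 h (adjusted p = 0.579). Without replicate 2 at 1 h the early value was 1.59. The late stage against the early one gave a log2 difference of -1.49 ± 0.64 (edgeR adjusted p = 0.856), and in that comparison 0 of the 10 genes had groups without overlap, against 6.24% of all genes.

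Replicate 2 at 1 h, which held the most Avpr1a, was not one of the neuron-rich libraries. Its summed CPM of sympathetic neuron genes, 904, was still above all Normal libraries (36.9 to 621). That library also held 122 counts of Nppa, against 0 to 2 in the others. Its sum of 10 exocrine pancreas genes was 185 CPM, against 5.15 to 158 CPM in the others. The part of nerve or pancreas RNA in the Avpr1a values was not tested by itself. With the nerve score in the model the early value was 3.09 ± 0.66 (edgeR adjusted p = 0.197), and with the smooth muscle score 2.64 ± 0.48 (adjusted p = 0.0805). Per 1000 CPM of smooth muscle genes Avpr1a was 0.42, 0.31 and 0.29 in Normal, 0.81, 2.41 and 3.74 at 1 h, and 0.41, 0.39 and 0.67 at 4 h. Only the early stage was clear of Normal on that scale (exact permutation p = 0.1 at 1 h and 0.3 at 4 h). Its divisor was itself lower on average at 1 h and higher at 4 h, with none of its genes called. The share of all genes clear of Normal on that scale was not computed. Over 19 other settings the early edgeR or DESeq2 adjusted p of Avpr1a ran from 0.012 to 0.591. The other vasopressin and oxytocin genes were close to silent: Avp had 10 counts in all libraries together, Avpr1b 2, Avpr2 2, Oxt 3 and Oxtr 46.

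**Figure D4:**
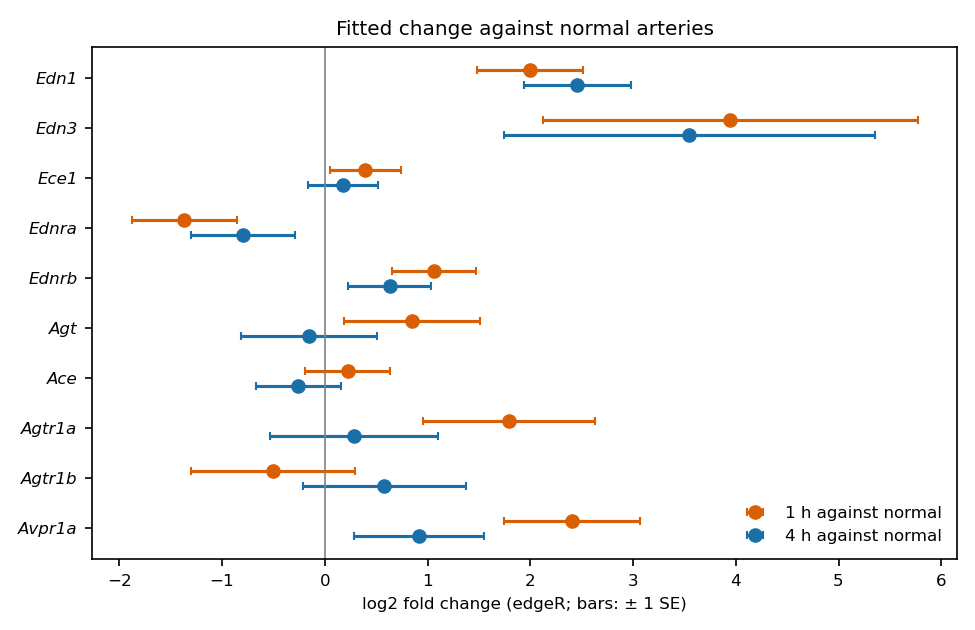
Log2 fold change from edgeR (x axis, bars ± 1 SE) of each of the 10 genes at 1 h and at 4 h against Normal. Edn1 is at 1.996 and 2.46, Avpr1a at 2.40 and 0.92, Ednrb at 1.07 and 0.63, and Ednra at -1.37 and -0.80; Edn3 has the widest bars.

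Of 89 genes in 6 lists (endothelin, angiotensin, vasopressin and oxytocin, Gq/11 and small GTPase coupling, receptor desensitisation, vasodilator peptides), 86 were in the table and 66 were tested, the 10 genes above among them. edgeR called 0 of the 66 in any comparison. At an unadjusted p under 0.05, 9 were higher and 5 lower at 1 h (21.2%), 4 higher and 2 lower at 4 h (9.09%), and 2 lower at 4 h than at 1 h (3.03%), next to the shares of all genes given above. Genes of the first 3 lists with too few reads to test also included Kel with 5 counts, Cma1 with 49, Ctsg with 0 and Lnpep with 30.

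Downstream of the receptors, Plcb1, a phospholipase C that Gq activates, was at 37.0, 42.9 and 43.5 CPM in Normal, 52.4, 57.8 and 63.0 CPM at 1 h, and 47.0, 58.9 and 66.3 CPM at 4 h. All ischemic libraries were above Normal, by a log2 of 0.49 ± 0.17 at 1 h (edgeR adjusted p = 0.266) and 0.48 ± 0.17 at 4 h (adjusted p = 0.314). Plcb4, of the same family, was at 112 to 134 CPM in Normal and 180 to 258 CPM at 1 h, and reached 262 CPM at 4 h only in the neuron-rich library, the other two being at 84.8 and 107 CPM. Arhgef1, a guanine nucleotide exchange factor downstream of contractile receptors, was at 110 to 152 CPM in Normal. It was at 87.4 to 105 CPM at 1 h (log2 -0.50 ± 0.19, edgeR adjusted p = 0.278). At 4 h it was at 85.4 to 113 CPM and overlapped with Normal (log2 -0.37 ± 0.19, edgeR adjusted p = 0.466). Over all genes, groups did not overlap for 26.3% at 1 h and 18.7% at 4 h.

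Among genes that switch receptors off, Rgs2, an inhibitor of Gq, was at 13.3, 16.2 and 44.5 CPM in Normal, 32.4, 37.6 and 36.5 CPM at 1 h, and 40.4, 105 and 46.8 CPM at 4 h. Normal replicate 3 overlapped with both stages, and the late log2 fold change was 1.38 ± 0.52 (edgeR adjusted p = 0.334). The receptor kinase Adrbk2 was at 119, 121 and 124 CPM in the 3 neuron-rich libraries and at 4.96 to 21.3 CPM in the other 6, with an early log2 fold change of 3.38 ± 1.19 (edgeR adjusted p = 0.262). Replicate 2 at 1 h, which is not neuron-rich, was at 21.3 CPM, above all Normal libraries (4.96 to 11.5 CPM), and the part of nerve RNA in Adrbk2 was not tested. Rgs16 was at 3.62 to 13.5 CPM in Normal, 9.90 to 42.4 CPM at 1 h and 3.47 to 14.9 CPM at 4 h. In the angiotensin list, Atp6ap2, an accessory subunit of the vacuolar proton pump, was likewise highest in the neuron-rich libraries (109, 110 and 111 CPM, against 29.5 to 56.4 CPM). Enpep, which degrades angiotensin II, was at 17.1 to 22.1 CPM in Normal, 10.3 to 15.4 CPM at 1 h and 8.19 to 17.0 CPM at 4 h, with log2 values of -0.64 ± 0.31 and -0.68 ± 0.31 (edgeR adjusted p = 0.318 and 0.421).

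Likeness of pattern was measured as Pearson's r of log2 CPM over the 9 libraries. It was taken against 10435 genes averaging at least 5 CPM, or 10436 for Edn3, which averages less. The 3 closest genes to Edn1 were Irak2 (0.962), Ankrd13c (0.960) and Matr3 (0.958). Closest to Edn3 were Eif5a2 (0.991), Psd3 and Tmem150c, to Ednra Mprip (0.994), Plekhh2 and Lix1l, to Ednrb Lrrc1 (0.984), Tmed5 and Tmem100, and to Ece1 Fam110d (0.967), Atxn7 and St6galnac2. For Agt they were Hilpda (0.929), Ehhadh and Jhdm1d, for Ace Rad54l2 (0.971), Nfe2l1 and Lrp4, for Agtr1a Dusp26 (0.988), Adra2a and Rassf5, for Agtr1b Ube2m (0.971), Susd2 and Trim68, and for Avpr1a Ptpn1 (0.937), Ell2 and Stom. The points share depth and cell makeup, and genes are not independent replicates. For Edn3, only the 3 neuron-rich libraries had more than 4 counts.

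**Figure D5:**
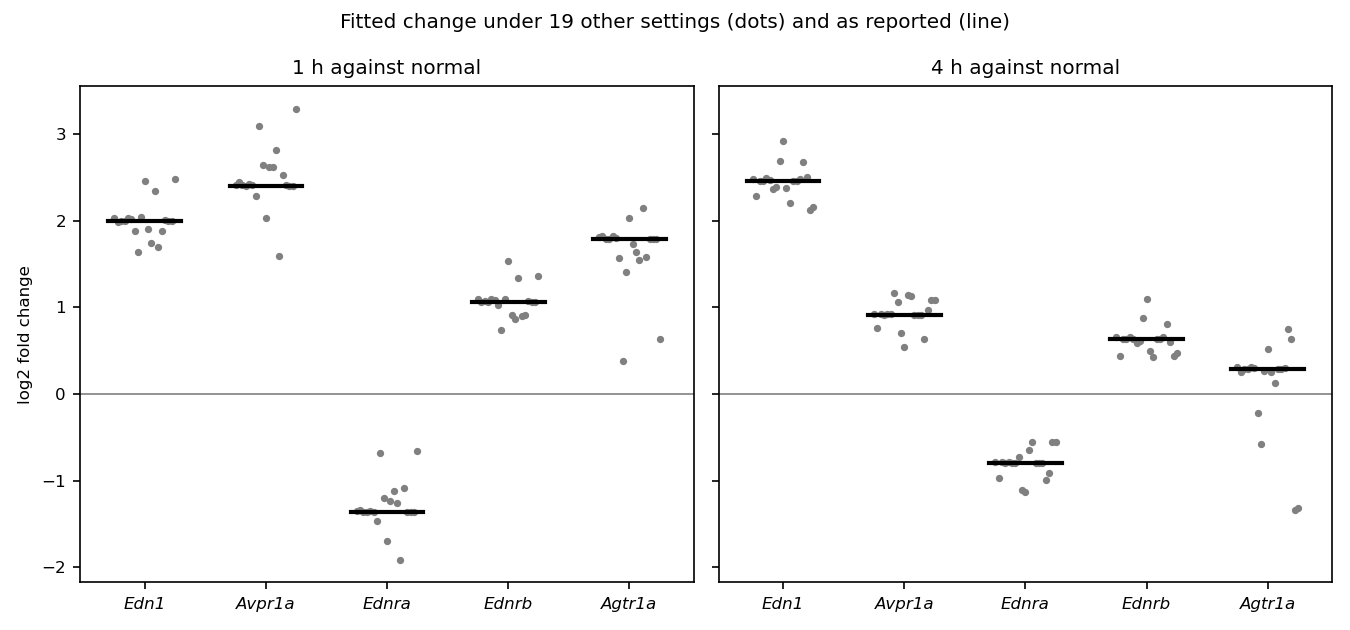
Log2 fold change of 5 genes (x axis) at 1 h (left) and 4 h (right) as reported (line) and under 19 other settings (dots). Edn1, Avpr1a, Ednra and Ednrb keep their sign in all 19, whereas Agtr1a at 4 h runs from -1.34 to 0.75.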

How the data were processed

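Superior mesenteric artery libraries (3 Normal, 3 ischemia 1 h, 3 ischemia 4 h) were analysed. The authors deposited whole-number counts per gene, not normalized; HISAT2 is named in the submitters' processing notes, and the version, genome build, annotation, counting program and strand setting are not given in the sources used here. The study's methods text describes microarrays, whereas the labels and the table are of sequencing. From the counts, low genes were removed with filterByExpr, TMM factors were computed, and an edgeR (version 4.0.16, R 4.3.3) quasi-likelihood test was fitted over all 9 libraries with group as the only term, after it had been tested on simulated data. P-values were adjusted by Benjamini-Hochberg over 15482 genes; the common biological coefficient of variation was 51.6%. DESeq2 1.42.0 was the other tool. Plotted log2 CPM used a prior count of 2; ratios of counts used a pseudocount of 0.5. The nerve score was the mean log2 CPM of sympathetic neuron and Schwann cell genes, and the smooth muscle score that of smooth muscle genes. Ratios were compared with two-sided exact permutation tests. The 10 genes were all named, with, for each of the 6 pathway lists, up to 3 genes of lowest unadjusted p over the 3 groups, and the 3 most similar genes per member. Calcrl, Ramp2 and Nppa were named besides. The members and lists were chosen with earlier results of these data known. A gene of the lists is not reported here. No libraries were copies of each other (chi-square over its degrees of freedom at least 29.9 for each pair).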

Additional observations from a re-analysis of the deposited data

How the results depend on the processing

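Of 376 values of the 10 genes under other settings, 357 kept their direction and their side of the threshold, 14 changed sign and 5 became called; none of the changed signs was of a called value, and the causes were not tested. DESeq2 called 2 of the 10 genes at 1 h, 1 at 4 h and 2 in the joint test, and 658, 557 and 627 of all genes, against 9, 14 and 6. The smooth muscle covariate gave 1 of the 10 (Ednra) at 1 h, 4 h and jointly, and 34, 70 and 34 of all genes. The nerve covariate gave 17, 110 and 35 of all genes and 0 of the 10. Fitting only the groups compared, where fewer libraries set the spread, gave 4 at 1 h and 4 at 4 h. No filter on low counts gave 11 jointly. Leaving out 1 library at a time gave 0 to 11 genes at 1 h and 1 to 14 at 4 h, and 0 of the 10 genes each time. At 1 h it gave 0 without Normal replicate 2 or 3, 1 without Normal replicate 1, 3 without replicate 2 or 3 at 1 h or replicate 2 at 4 h, and 5 without replicate 1 at 4 h. At 4 h it gave 1 without Normal replicate 2, 2 without Normal 1, 4 without Normal 3, 7 and 3 when replicates 1 and 3 at 1 h were left out, and 5 and 3 when replicates 1 and 2 at 4 h were.

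Signs changed as follows, with the range over libraries left out where one of them changed the sign. Ece1 at 4 h was -0.020 by library size alone. Agtr1a at 4 h was -0.58 with the nerve score, -1.34 without replicate 3 at 4 h (range -1.34 to 0.75) and -1.31 without the 3 neuron-rich libraries. Agtr1b at 1 h was 0.87 with the nerve score and 0.16 with the smooth muscle score. Agt at 4 h was 0.16 with the smooth muscle score, 0.14 without Normal replicate 1 and 0.23 when replicate 1 at 4 h was left out (range -0.55 to 0.23), and at 1 h -0.13 without replicate 3 (range -0.13 to 1.17) and -0.064 without the neuron-rich libraries. Ace at 1 h was -0.052 without replicate 2 (range -0.052 to 0.53), and Edn3 at 4 h -0.27 without replicate 3 (range -0.27 to 4.12). The log2 ratio of Agtr1a to Ednra, 3.06 higher at 1 h and 0.30 at 4 h (exact permutation p = 0.2 and 0.8), was -0.13 at 4 h without Normal replicate 3 and -0.98 when the neuron-rich replicate 3 at 4 h was left out (range -0.98 to 1.24).

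With the replicate number as a block, Agtr1a at 4 h was -0.22, and 7 genes were called at 1 h, 7 at 4 h and 0 jointly; no call on the 10 genes changed. Same-numbered libraries shared only a number (r of deviations from the group means -0.65 to 0.66 over 9 pairs). Without the 3 neuron-rich libraries, a setting added after seeing the data, 0 of the 10 genes were called. Depth limited Edn3 (0 to 80 counts a library) most.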

Other observations

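Among vasodilator peptides, a list that opposes the constrictors, the adrenomedullin gene Adm showed a pattern near to that of Edn1. It was at 4.98, 4.60 and 3.40 CPM in Normal, 15.4, 20.7 and 19.5 CPM at 1 h, and 4.88, 19.2 and 19.3 CPM at 4 h. All libraries at 1 h were above Normal, and replicate 1 at 4 h was not. Its log2 fold change was 2.10 ± 0.49 at 1 h (edgeR adjusted p = 0.188) and 1.74 ± 0.48 at 4 h (adjusted p = 0.202). Ramp3, which turns the calcitonin-like receptor into an adrenomedullin receptor, was at 5.82 to 7.37 CPM in Normal, 8.16 to 27.1 CPM at 1 h and 6.47 to 14.99 CPM at 4 h (early log2 1.58 ± 0.48, edgeR adjusted p = 0.232). The calcitonin-like receptor itself, Calcrl, was lower on average, at means of 71.6 CPM in Normal, 34.2 at 1 h and 56.3 at 4 h. Its log2 fold changes were -1.07 ± 0.36 and -0.35 ± 0.36 (edgeR adjusted p = 0.26 and 0.707). Ramp2 was also lower on average, with log2 fold changes of -0.57 ± 0.22 and -0.55 ± 0.22 (edgeR adjusted p = 0.281 and 0.36). Npr1, the receptor of atrial natriuretic peptide, was at 28.4 to 48.8 CPM in Normal and lower in all 6 ischemic libraries, 13.3 to 24.8 CPM at 1 h and 13.6 to 22.8 CPM at 4 h. Its log2 fold changes were -0.81 ± 0.33 and -0.92 ± 0.33 (edgeR adjusted p = 0.29 and 0.314). Over all genes, groups did not overlap for 26.3% at 1 h and 18.7% at 4 h. None of the 11 tested genes of this list was called.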
